A study of Mus musculus with 6 samples.

Results

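The S100 family is a set of small calcium-binding proteins. The 10 genes described here, S100a1, S100a4, S100a6, S100a8, S100a9, S100a10, S100a11, S100a13, S100a16 and S100b, were found by gene symbol among the 54752 genes of each count table. RNA-seq counts came from 6 male wild-type C57BL/6 mice (C57BL/6 J in the methods), 3 with bilateral carotid artery stenosis (BCAS) and 3 with sham surgery, with 1 library per mouse from the whole right hippocampus at 3 weeks after surgery. In BCAS mice a microcoil narrowed each common carotid artery, with the tighter coil on the right, the side that was sampled. Sham mice had the same operation without coils, no mouse carried a transgene or a drug treatment, and the labels give 14 weeks as the age of all 6 mice. The BCAS mice were survivors of the operation, and the tissue was not sorted into cell types.

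S100 proteins usually act as dimers, and each subunit carries a pair of EF hands, the loops that hold calcium. Calcium binding uncovers a surface through which most members grip partner proteins such as annexins, and some members are also released and act on cell-surface receptors such as RAGE and TLR4. In the brain S100b is best known as a protein of astrocytes, while S100a8 and S100a9 are best known from neutrophils and monocytes.

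The libraries held between 29652456 and 35607098 counted reads. Levels are given as CPM, the counts of a gene scaled to a common library size, after TMM scaling for differences in composition, and 3 counts corresponded to between 0.0875 and 0.0995 CPM. As a check of the tissue, all 10 genes of a hippocampal neuron list were measured, and their summed level was 9461 to 9940 CPM in sham mice against 4772 to 6980 CPM in BCAS mice. In whole tissue, more or fewer cells of a type and more or less RNA per cell cannot be told apart. Choroid plexus markers differed widely within both groups, from 72.7 to 4192 CPM in sham mice and from 48.8 to 6095 CPM in BCAS mice, and followed neither group.

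The comparison of BCAS with sham mice asked which S100 genes differed in the hippocampus after 3 weeks of reduced blood flow. S100 RNA was higher in BCAS mice: 7 of the 10 members, S100b, S100a1, S100a16, S100a13, S100a10, S100a6 and S100a11, rose at an adjusted p under 0.05, and none fell. Among all 18617 genes tested, 18.0% rose and 13.2% fell by this rule, 31.3% in all. The highest fold changes were those of S100a6 and S100a11, and the most abundant member, S100b, came next among the genes that rose. With an added threshold of a log2 fold change above 1, these 3 members were called, against 8.47% of all tested genes called higher, 0.999% called lower and 9.46% called in either direction. Of the 8 members tested, 7 had every BCAS library above every sham library, and these were the 7 that rose. This separation held for 25.3% of all tested genes, while 22.7% lay wholly below. The 8 members that could be tested had a median log2 fold change of 0.86, against 0.02 over all tested genes. This median includes S100a9, which passed the filter on low counts only with its BCAS libraries, so it is given as a description. S100a8 and S100a9 had few counts and overlapped between groups, and reads of S100a4 could scarcely be counted. Each gene was compared by the quasi-likelihood method of edgeR, with p adjusted by the Benjamini-Hochberg method over all tested genes, and the mice of each group were separate animals.

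**Figure D1:**
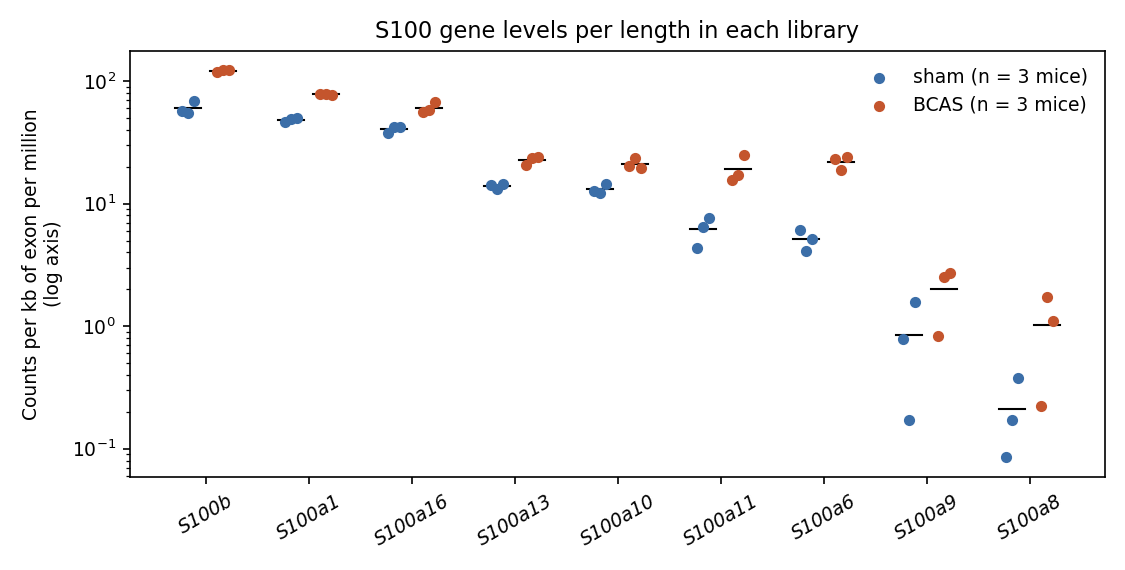
Levels of 9 S100 genes in each library, in CPM per kilobase of exon on a log axis. Each point is 1 mouse, blue for sham and orange for BCAS, and the black line is the mean of 3 mice; the groups are separate for the 7 genes on the left and overlap for S100a9 and S100a8.

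S100b encodes the S100 protein most used as an astrocyte marker, and its released form is a ligand of RAGE. The gene (ENSMUSG00000033208.7) lies at chr10:76253853-76261159 on the plus strand of mm10, apart from the other members. Its level was 84.5, 82.1 and 103 CPM in sham mice 1 to 3 against 177, 182 and 182 CPM in BCAS mice 1 to 3. Every BCAS mouse was above every sham mouse, and the BCAS mice were close to each other. The mean went from 89.8 ± 11.2 to 180.4 ± 3.03 CPM (SD, n = 3), a 2.01-fold rise, and edgeR gave a log2 fold change of 1.01 (SE 0.09, adjusted p = 1.16e-04). The adjusted p stayed under 0.05 in all 14 alternative fits that tested for any change, with log2 fold changes from 0.94 to 1.11, so the rise itself held but its place above a log2 fold change of 1 did not. It fell below 1 in 6 of them, to 0.96 without sham mouse 1, 0.94 without sham mouse 2, 0.99 without BCAS mouse 2, 0.997 without BCAS mouse 3, and 0.99 with DESeq2 or with RLE scaling.

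S100a1 and S100a13 sit head to head on chromosome 3. S100a1, best known from heart and muscle, where it binds the ryanodine receptor, occupies chr3:90511034-90514392 on the minus strand. S100a13, which takes part in the release of FGF1 from cells, occupies chr3:90514435-90524581 on the plus strand, so 42 bases separate the annotated genes. The RefSeq start sites are 105 bases apart, and the promoter windows of the pair share 204 of their 300 bases. The window of S100a13 is shown because it holds the shared stretch. Any part of that stretch in the levels of the pair was not tested. S100a1 rose 1.61-fold and S100a13 1.64-fold, and S100a10, which lies farther along chromosome 3, also rose 1.61-fold. The line gives the S100a13 window of RefSeq (GRCm38.p6, chr3:90514185-90514484, plus strand), with the bases from the S100a1 start to the S100a13 start in capitals.
S100a13 and S100a1: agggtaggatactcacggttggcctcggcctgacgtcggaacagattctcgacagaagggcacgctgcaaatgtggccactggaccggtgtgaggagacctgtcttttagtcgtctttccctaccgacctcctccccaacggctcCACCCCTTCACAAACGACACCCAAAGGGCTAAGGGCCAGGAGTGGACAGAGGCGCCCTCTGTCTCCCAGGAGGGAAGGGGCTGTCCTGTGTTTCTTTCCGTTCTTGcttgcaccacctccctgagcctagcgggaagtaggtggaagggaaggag

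S100a1 was at 32.2, 34.4 and 34.4 CPM in sham mice against 54.0, 54.6 and 53.8 CPM in BCAS mice. All BCAS mice were above all sham mice, with little spread in either group. The rise was 1.61-fold, from 33.6 ± 1.27 to 54.1 ± 0.394 CPM (SD, n = 3), with a log2 fold change of 0.69 (SE 0.07, edgeR adjusted p = 2.11e-04). S100a13 was at 10.1, 9.34 and 10.3 CPM in sham mice against 14.8, 16.8 and 17.2 CPM in BCAS mice, again without overlap. It rose 1.64-fold, by 0.71 on the log2 scale (SE 0.12, edgeR adjusted p = 0.00226). The ratio of S100a13 to S100a1 within a library, which does not depend on scaling, was on the log2 scale -1.81 ± 0.11 in sham mice against -1.78 ± 0.12 in BCAS mice (SD, n = 3), and the groups overlapped (exact two-sided permutation test, p = 0.7). With 3 mice against 3 the smallest p this test can give is 0.1.

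S100a16, a widely expressed member on the same stretch of chromosome 3 (chr3:90537254-90543151, plus strand), was at 61.4, 68.5 and 68.1 CPM in sham mice against 90.8, 93.6 and 110.1 CPM in BCAS mice. The lowest BCAS mouse was above the highest sham mouse. The rise, 1.49-fold or 0.57 on the log2 scale (SE 0.09, edgeR adjusted p = 0.00212), was the smallest among the 7 members that rose.

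S100a6, also named calcyclin, binds annexins and the calcyclin-binding protein Cacybp, and lies at chr3:90612882-90624181 on the plus strand. Its level was 8.35, 5.66 and 7.08 CPM in sham mice against 31.9, 25.8 and 32.6 CPM in BCAS mice. Even the lowest BCAS mouse was more than 3 times the highest sham mouse. The mean went from 7.03 ± 1.35 to 30.1 ± 3.73 CPM (SD, n = 3), 4.28-fold, and edgeR gave a log2 fold change of 2.10 (SE 0.16, adjusted p = 4.67e-05). S100a6 was past both thresholds in all 14 alternative fits, with log2 fold changes from 1.96 to 2.24. It was also the only member called when edgeR tested for a change larger than a log2 fold change of 1 (adjusted p = 6.38e-04, against 0.0873 for S100a11).

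S100a11, which binds annexins A1 and A6, lies at chr3:93520488-93526287 on the plus strand, 44.2 kb from end to end together with S100a10. It was at 2.21, 3.32 and 3.94 CPM in sham mice against 7.94, 8.79 and 12.6 CPM in BCAS mice. The groups did not overlap, and BCAS mouse 3 was the highest. The mean went from 3.16 ± 0.873 to 9.79 ± 2.50 CPM (SD, n = 3), 3.10-fold, with a log2 fold change of 1.63 (SE 0.26, edgeR adjusted p = 0.00191). It too was past both thresholds in all 14 alternative fits, with log2 fold changes from 1.40 to 1.82. S100a11 has a pseudogene copy, and reads that aligned equally well to both were not counted.

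S100a10, also named p11, pairs with annexin A2 and, unlike other members, no longer binds calcium. At chr3:93555080-93564643 on the plus strand, it was at 15.3, 14.8 and 17.6 CPM in sham mice against 24.6, 28.5 and 23.6 CPM in BCAS mice. The groups were separate, with BCAS mouse 2 the highest. It rose 1.61-fold, from 15.9 ± 1.54 to 25.6 ± 2.60 CPM (SD, n = 3), with a log2 fold change of 0.69 (SE 0.12, edgeR adjusted p = 0.00302). Its partner Anxa2 rose more, from 339, 324 and 500 counts in sham mice to 1077, 1173 and 1474 counts in BCAS mice. The log2 ratio of S100a10 to Anxa2 per kilobase was lower in every BCAS mouse than in any sham mouse, 1.00 ± 0.32 against 2.12 ± 0.19 (SD, n = 3, exact two-sided permutation test, p = 0.1, the smallest possible).

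Promoter windows of 300 bases, 250 before and 50 from the RefSeq start on, were given for 9 members as 10 windows, and none was given for S100a10. The windows of the 2 members that rose most are shown. In S100a11 (GRCm38.p6, chr3:93520246-93520545, plus strand) capitals mark 2 copies of TGAGTCA, the letters of an AP-1 site, which begin at positions -136 and -38 relative to the start. The S100a6 window (chr3:90612644-90612943, plus strand) has no capitals because none of the 4 motifs searched was found in it.
S100a11: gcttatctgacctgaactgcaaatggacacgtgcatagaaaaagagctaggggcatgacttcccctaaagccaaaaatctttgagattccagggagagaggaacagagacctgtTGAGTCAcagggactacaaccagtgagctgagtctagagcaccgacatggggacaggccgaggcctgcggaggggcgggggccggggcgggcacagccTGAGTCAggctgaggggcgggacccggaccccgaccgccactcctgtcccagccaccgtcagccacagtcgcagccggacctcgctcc
S100a6: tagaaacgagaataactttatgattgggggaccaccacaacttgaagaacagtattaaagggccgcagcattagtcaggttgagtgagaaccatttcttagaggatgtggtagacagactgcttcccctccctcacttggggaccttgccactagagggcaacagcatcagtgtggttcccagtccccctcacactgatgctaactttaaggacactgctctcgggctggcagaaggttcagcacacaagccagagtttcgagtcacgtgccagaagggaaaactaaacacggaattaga

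The search covered both strands for 4 sets of letters. TGANTCA (AP-1) was found in 2 of the 10 member windows, those of S100a11 and the second window of S100a16, against 7.81% of 32851 mouse windows of this length. TATAAA, the core of the promoter box of that name, was found in 3 windows, those of S100a4, S100a8 and S100a9, against 13.6% of all windows. It began at position -31 in S100a4, at -30 in S100a8 and at the start itself in S100a9. TTGCNNAA (C/EBP) was found in 1 window, that of S100a9, against 10.8%, and TTCNNNGAA (STAT) in 0 windows, against 8.30%. The different sets of letters did not overlap in any member window, and a match describes letters only.

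S100a9 and S100a8 together form calprotectin, a protein that neutrophils and monocytes release and that acts on TLR4 and RAGE. S100a9 (chr3:90692632-90695721, minus strand) had 14, 3 and 28 counts in sham mice against 14, 40 and 44 counts in BCAS mice. The groups overlapped, since BCAS mouse 1 lay among the sham mice. The log2 fold change was 1.25 (SE 0.69, edgeR adjusted p = 0.202), with a 95% interval from -0.31 to 2.81, so no difference was called and the interval holds both no change and a large rise. It was 2.04 without sham mouse 3 (adjusted p = 0.106), 0.77 without sham mouse 2 (0.396), and between 0.98 and 1.62 without any other single mouse. S100a8 (chr3:90668978-90670035, plus strand) had 2, 4 and 9 counts in sham mice against 5, 36 and 24 counts in BCAS mice. It too overlapped through BCAS mouse 1, and it did not pass the filter on low counts. Fits that kept S100a8 gave log2 fold changes from 1.85 to 2.92, with adjusted p = 0.0240 when every gene with a count was tested and 0.0400 with DESeq2, but 0.0603 when a mean of 10 counts was required. Without BCAS mouse 1 the edgeR adjusted p was 0.0157, and without sham mouse 1, 2 or 3 it was 0.182, 0.153 or 0.0770. In these fits with 1 mouse left out S100a8 passed the filter only through BCAS mice 2 and 3, where it was high, and without either of those mice it could not be tested, so they are no support for a difference.

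Defining neutrophil markers had few or no counts in these libraries. Ly6g was at 0 counts in all 6, Elane at no more than 2 counts, and 8 of the 10 neutrophil genes did not pass the filter. The granule genes Ngp, with 19, 6 and 25 counts in sham mice against 4, 0 and 0 in BCAS mice, and Camp, with 8, 0 and 13 against 0, 0 and 2, had counts in the range of S100a9 in sham mice and fewer in BCAS mice. The summed level of the list, 7.51 to 9.56 CPM in sham mice against 77.6 to 121 CPM in BCAS mice, held 77.1 to 120 CPM of Csf3r, which microglia also express, in BCAS mice and 5.98 to 8.17 CPM of it in sham mice. BCAS mouse 1, low for S100a8 and S100a9, was also the lowest BCAS mouse for Cxcr2, with 2 counts against 20 and 15, and for Lcn2, with 5.11 CPM against 26.0 and 24.8 CPM; these 2 genes and the granule genes were picked after their values were seen, and their part in the S100a8 and S100a9 values was not tested.

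Of the 8 genes of the monocyte list 6 were tested, and 4 were called higher past both thresholds, Ccr2, Ly6c2, Plac8 and F13a1, against 8.47% of all tested genes. Their count is no support for a change of the list, since Ly6c2 and Plac8 passed the filter on low counts only through the BCAS libraries, where they were high. The median log2 fold change over the 6 tested genes was 2.24, against 0.02 over all tested genes. It includes Ly6c2 and Plac8, so it is given as a description and is no support either. Ly6c2, a surface protein gene of inflammatory monocytes, had 0, 1 and 0 counts in sham mice and reached 39, 74 and 71 in BCAS mice, and the chemokine receptor gene Ccr2 went from 18, 14 and 19 to 99, 132 and 176. Both were separate between groups and lowest among BCAS mice in mouse 1. The summed level of the list overlapped, at 20.0 to 88.9 CPM in sham mice against 38.3 to 151 CPM in BCAS mice, and was mostly that of Ace, which varied widely within both groups. The part of monocytes in the S100a8 and S100a9 values was not tested.

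S100a4, known for binding non-muscle myosin and as a marker of some fibroblasts and leukocytes, had 0, 0 and 0 counts in sham mice against 0, 1 and 3 counts in BCAS mice. These counts cannot be read as a level. The gene (chr3:90603771-90606045, plus strand) shares 302 of its 584 exon bases with another annotated gene, Gm42674, on the same strand, and under the settings named in the file headers a read that touches exons of both was assigned to neither. Of the 349 positions that a 150-base read can take on the main S100a4 transcript, only 11 (3.15%) touch no shared base, and on the shorter transcript none of 187 does. Gm42674 itself was at 0 counts in all 6 libraries. No other member shared exon bases with another gene.

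S100 genes outside the 10 members were mostly silent in these tables. Of 6 found, S100a5, S100g and S100z were at 0 counts in every library and S100a14 at no more than 1. S100a7a had 11, 3 and 7 counts in sham mice against 26, 35 and 20 counts in BCAS mice, and edgeR gave a log2 fold change of 2.05 (SE 0.51, adjusted p = 0.0164). Since it passed the filter on low counts through its BCAS libraries, where it was high, this value is given as a description and is no support for a difference. S100a3 had 15, 8 and 3 counts against 38, 13 and 14, with overlap and a log2 fold change of 1.41 (edgeR adjusted p = 0.129).

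Corrected for exon length, so that genes can be set against each other, S100b was the most abundant member in both groups. Its level was 60.5 ± 7.57 CPM per kilobase of exon in sham mice against 121.5 ± 2.04 in BCAS mice (SD, n = 3). S100a1 followed with 48.5 ± 1.83 and 78.0 ± 0.568, and S100a16 with 40.8 ± 2.45 and 60.7 ± 6.44. These 3 did not overlap within either group, so their order held in each. In sham mice S100a13 (13.9 ± 0.711) and S100a10 (13.1 ± 1.27) overlapped with each other, as did S100a11 (6.18 ± 1.71) and S100a6 (5.14 ± 0.986) below them. In BCAS mice these 4 could no longer be ranked: S100a13 spanned 20.7 to 24.0, S100a6 18.9 to 23.9, S100a10 19.5 to 23.6 and S100a11 15.5 to 24.7. Apart from S100a4, S100a9 and S100a8 were lowest in both groups, at 2.02 ± 1.04 and 1.02 ± 0.753 in BCAS mice.

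The level per length summed over the 10 members was 189 ± 13.5 in sham mice against 348 ± 15.1 in BCAS mice (SD, n = 3), 1.84-fold higher. The sums did not overlap, at 179 to 205 against 334 to 364 (exact two-sided permutation test, p = 0.1, the smallest possible). The make-up of this sum also differed. S100a6 and S100a11 together held 5.97% ± 0.281 of it in sham mice against 11.8% ± 1.48 in BCAS mice, again without overlap (p = 0.1 by the same exact test). S100a16 held 21.6% ± 1.31 and 17.4% ± 1.13, and S100a1 25.7% ± 1.40 and 22.4% ± 1.03 (each exact p = 0.1). The share of S100b was 31.9% ± 1.83 in sham mice against 34.9% ± 1.12 in BCAS mice, and the groups overlapped (exact p = 0.2). Set against S100b in the same library, S100a6 was 2.14-fold higher in BCAS mice, a log2 difference of 1.10 between the group means, and every BCAS mouse was above every sham mouse (exact p = 0.1). The other ratios to S100b differed by 0.63 for S100a11, -0.33 for S100a1 and -0.45 for S100a16 on the log2 scale (each exact p = 0.1). These 6 ratios and 10 shares were computed on the same 6 libraries, and none could pass a correction for their number.

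**Figure D2:**
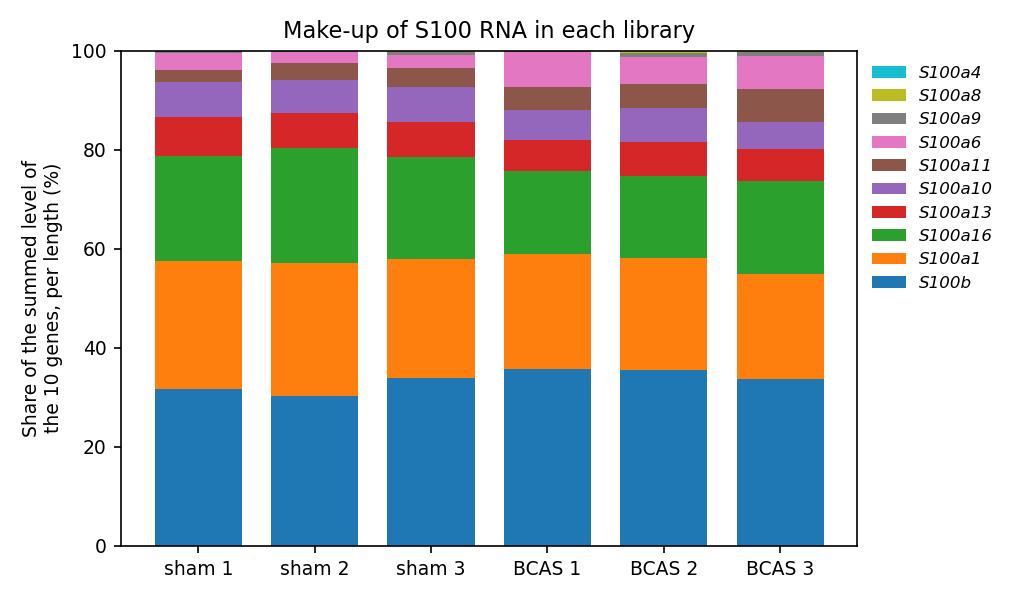
Share of each S100 gene in the summed level per length, in percent, with 1 stacked bar per library. S100b, S100a1 and S100a16 together made up 78.6% to 80.3% in sham mice against 73.6% to 75.8% in BCAS mice, and the bands of S100a6 and S100a11 were wider in BCAS mice.

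Marker lists of several cell types were also higher in BCAS mice, while that of hippocampal neurons was lower. The summed level of the astrocyte list was 4638 to 4846 CPM in sham mice against 6829 to 6878 CPM in BCAS mice, and 9 of its 10 genes rose at an adjusted p under 0.05, against 18.0% of all tested genes. The list's median log2 fold change was 0.66, against 0.02 over all tested genes. The reactive astrocyte list, led in level by the filament protein gene Gfap, stood at 483 to 577 CPM against 4240 to 4811 CPM, and the microglia list at 355 to 370 CPM against 2431 to 3934 CPM. Fibroblast markers were at 214 to 277 CPM against 451 to 673 CPM and endothelial markers at 280 to 322 CPM against 349 to 426 CPM. The oligodendrocyte list overlapped, at 5195 to 6382 CPM against 5929 to 8932 CPM. The part of any of these cell types in the S100 values was not tested.

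Each member was also set, in each library, against the mean log2 level of the astrocyte list. This ratio overlapped between groups for S100a1, S100a13, S100a10 and S100a16, with differences of 0.01, 0.03, 0.01 and -0.11 on the log2 scale (exact two-sided permutation test, p = 0.6, 0.5, 1.0 and 0.2). S100b was 0.33 higher against the astrocyte list in BCAS mice, S100a11 0.96 higher and S100a6 1.43 higher, each without overlap (exact p = 0.1). Against the reactive astrocyte list all 7 members fell behind, from -0.85 for S100a6 to -2.39 for S100a16, and against the microglia list from -0.87 to -2.41 (each exact p = 0.1). No correction for the number of these tests could be passed with 3 mice against 3.

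**Figure D3:**
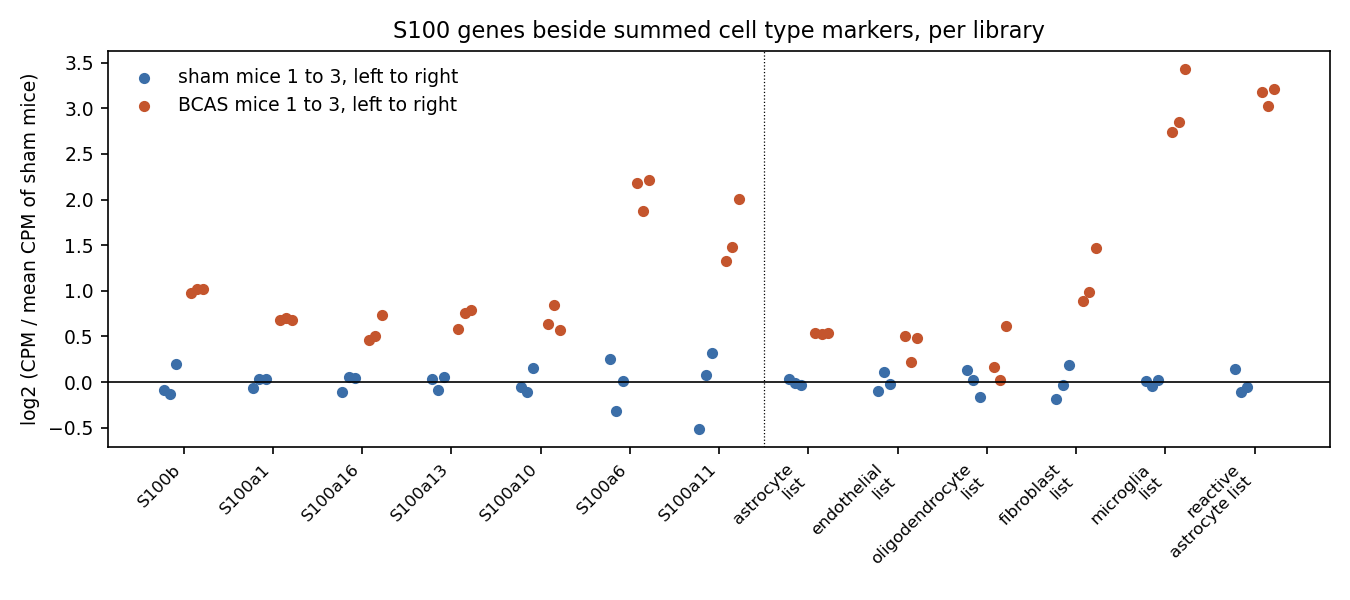
Log2 of the CPM in each library over the mean CPM of the sham mice, for 7 S100 genes on the left and summed marker lists on the right of the dotted line; blue points are sham mice and orange points BCAS mice, 1 to 3 from left to right. S100a6 and S100a11 sit above the astrocyte list and below the microglia and reactive astrocyte lists.

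Genes for proteins that S100 proteins bind did not move as one. Of 14 partners tested, 6 rose and 4 fell at an adjusted p under 0.05, where 18.0% of all tested genes rose and 13.2% fell, and the list's median log2 fold change was -0.08, against 0.02 over all tested genes. Past both thresholds were Anxa2, the annexin A2 partner of S100a10 (log2 fold change 1.80, SE 0.19, edgeR adjusted p = 1.98e-04), Anxa1, the partner of S100a11 (1.38, SE 0.27, adjusted p = 0.00515), and Ahnak, a large scaffold that binds the S100a10 and annexin A2 complex (1.36, SE 0.13, adjusted p = 1.19e-04). Anxa1 was at 2.95, 1.98 and 2.77 CPM in sham mice against 4.59, 8.59 and 6.92 CPM in BCAS mice, and Ahnak at 24.8, 23.3 and 24.2 CPM against 63.1, 50.4 and 72.6 CPM. Neither gene overlapped between groups.

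Among the weaker changes, Myh9, the non-muscle myosin heavy chain bound by S100a4, rose with a log2 fold change of 0.95 (edgeR adjusted p = 5.88e-04) and the kinase gene Stk38, a target of S100b, with 0.52 (edgeR adjusted p = 0.00319). Cacybp and Sugt1, whose products bind S100a6, fell by 0.41 and 0.34 on the log2 scale (edgeR adjusted p = 0.0103 and 0.00934). The serotonin receptor genes Htr1b and Htr4, whose products S100a10 helps to place at the cell surface, fell by 0.60 and 0.63 (edgeR adjusted p = 0.0440 and 0.0292), and Hltf rose by 0.31 (edgeR adjusted p = 0.0250). The calls of these last 3 did not hold when any sham mouse was left out, with adjusted p from 0.0882 to 0.118 for Htr1b, 0.0669 to 0.0941 for Htr4 and 0.0643 to 0.0948 for Hltf. Without BCAS mouse 1 or 3 Htr1b (0.125 and 0.126) and Hltf (0.0538 and 0.0754) were also lost, as were Htr1b (0.0644) and Htr4 (0.0562) when library totals replaced TMM scaling. With replicate number as a block, Htr1b (0.0609) and Hltf (0.0729) were lost as well. Anxa6, Anxa11, Kcnk3 and Ryr2, the ryanodine receptor gene, did not pass, with log2 fold changes of 0.04, -0.36, -0.20 and -0.40. Ryr2 passed without BCAS mouse 1 (adjusted p = 0.00696), with DESeq2 (0.0121), with RLE scaling (0.0451) and when every gene with a count was tested (0.00828). It also passed with replicate number as a block (0.0223), and Kcnk3 passed without BCAS mouse 2 (0.0392).

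Of 9 genes for receptors of released S100 proteins and their signalling, 4 rose past both thresholds, against 8.47% of all tested genes, and 1 fell at an adjusted p under 0.05, against 13.2%. The list's median log2 fold change was 1.02, the value of Ly96, against 0.02 over all tested genes. Ager, which is among the 4, and Ly96 passed the filter on low counts only with their BCAS libraries, where they were high. The count and the median are thus given as a description and are no support for a change of the list. Cd14, the co-receptor of TLR4, was at 69, 105 and 96 counts in sham mice against 747, 847 and 1147 counts in BCAS mice, for which the log2 fold change was 3.46 (SE 0.22, edgeR adjusted p = 2.08e-05). Tlr4 itself had 50, 51 and 30 counts against 242, 178 and 332, a log2 fold change of 2.63 (SE 0.30, edgeR adjusted p = 3.05e-04). Both genes were separate between groups, as was the adaptor gene Myd88, which rose by 1.26 (SE 0.20, edgeR adjusted p = 0.00226). The microglia list, whose cells express these genes, rose beside them, and its part was not tested. Ly96, whose product completes the TLR4 complex, had a log2 fold change of 1.02 that did not pass (edgeR adjusted p = 0.126).

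Ager, the gene of RAGE, was scarce, with 0.295, 0.569 and 0.554 CPM in sham mice against 1.45, 0.995 and 1.03 CPM in BCAS mice. Its groups did not overlap, and the log2 fold change was 1.28 (SE 0.39, edgeR adjusted p = 0.0343). Sham mouse 1 fell short of the filter on low counts, so Ager passed it only with its BCAS libraries, where it was high. This value is therefore given as a description and is no support for a difference. The call was lost without sham mouse 1, 2 or 3 (adjusted p = 0.104, 0.0653 and 0.0718) and without BCAS mouse 1 or 3 (0.119 and 0.0636), and it was kept without BCAS mouse 2 (0.0444). When replicate number was added as a block, the call was also lost (adjusted p = 0.0866). Nptn, the gene of neuroplastin, a neuronal protein described as a receptor of S100a8, fell by 0.51 (SE 0.10, edgeR adjusted p = 0.00445). Bsg, Cd36 and Mcam had log2 fold changes of 0.26, 0.66 and -0.00 and did not pass, though Cd36 did without BCAS mouse 1 (adjusted p = 0.0282).

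**Figure D4:**
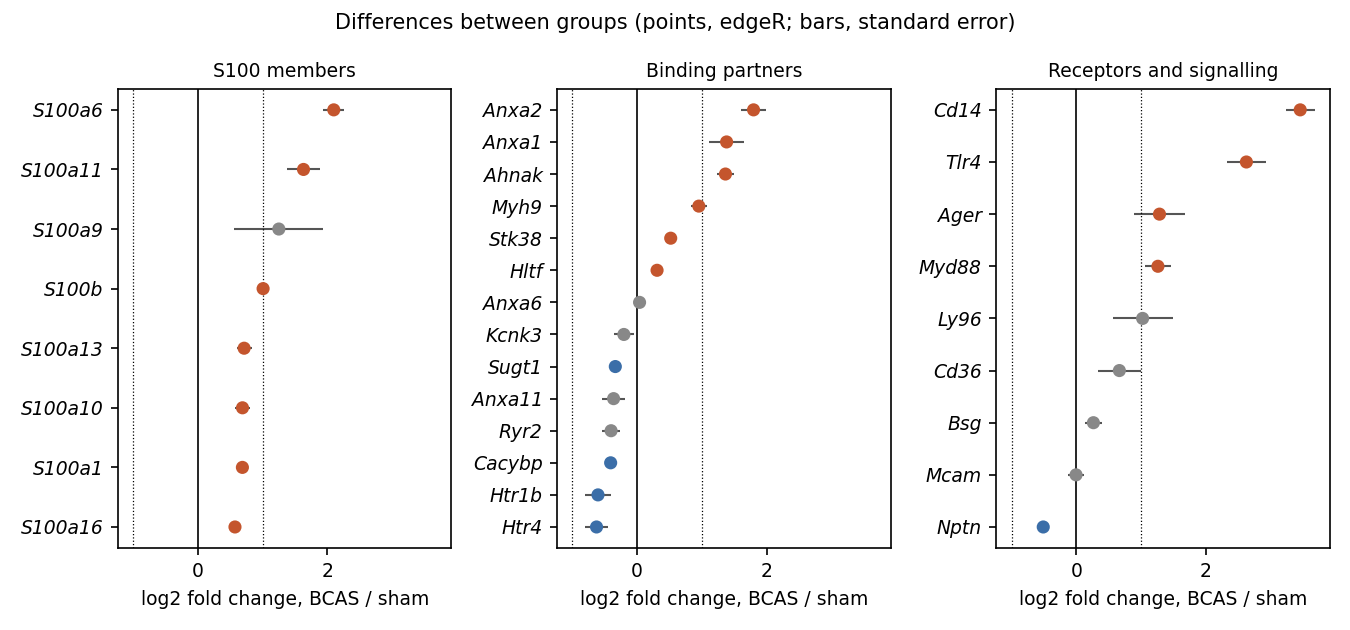
Log2 fold change of BCAS over sham mice for the tested S100 members, binding partners and receptor genes. Points are edgeR estimates and bars their standard errors, with orange for genes that rose and blue for genes that fell at an adjusted p under 0.05 and grey for the rest; dotted lines mark a log2 fold change of 1 in either direction. All tested members lie above 0, from 0.57 to 2.10, while the partners lie on both sides.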

How the data were processed

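RNA-seq libraries of 3 sham and 3 BCAS mice, grouped by their labels, were used. After trimming, the authors used HISAT2 to align reads to mm10, and deposited raw read counts per gene in 1 table per library. The file headers name featureCounts 2.0.3 with GENCODE M20, the methods featureCounts 1.6.3. Per the file headers, mates were counted separately and without strand, and reads at several places or on several genes were not counted.

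The 54752 gene identifiers were matched to symbols, and 29 had none. Counts were tested with edgeR 4.0.16 in R 4.3.3 (TMM, filterByExpr, quasi-likelihood test), with p adjusted over the 18617 genes kept. Calls used an adjusted p under 0.05, alone or with an absolute log2 fold change above 1. The fit was also tested on simulated data, but no outcome of that test is given or used here. Ratios and shares were compared by exact permutation tests. Alternatives were DESeq2 1.42.0, limma-voom (limma 3.58.1), RLE factors, library totals, 2 other filters, counts halved, a replicate block, leaving out each mouse, and a test against a log2 fold change of 1. No gene with a mean of 3 counts or less in a group of 3 mice was given a fold of its own. Single libraries at or below 3 counts still entered the fits.

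The members and lists were chosen with earlier results of these data known. By the naming rule, all members, other S100 genes, partners and receptors could be named, and from other lists the defining markers and up to 3 genes with the largest change. BCAS mice are numbered 1 to 3 as in the labels, while the file headers number the same libraries B2 to B4. Promoters came from RefSeq.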

Additional observations from a re-analysis of the deposited data

How the results depend on the processing

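The count of 3 S100 members past both thresholds fell to 1, S100a6, when edgeR tested for a change above a log2 fold change of 1. Over all 18617 tested genes, the number called higher fell from 1576 to 804 in the same test. Leaving out 1 mouse at a time gave 2 to 4 members past both thresholds and 7 to 8 members at an adjusted p under 0.05 (main 7). The added one was S100a8, without BCAS mouse 1, where it passed the filter only through BCAS mice 2 and 3. Partners and receptors past both thresholds numbered 6 to 8 (main 7). The main count includes Ager, which passed the filter on low counts only with its BCAS libraries. Among all genes tested in these fits, 19051 to 19195, 1210 to 1746 were called higher past both thresholds (main 1576 of 18617). At an adjusted p under 0.05, 2453 to 3554 were higher (main 3356). The difference in the S100b share ranged from 2.13 to 3.95 percentage points (main 3.00) and that in the log2 ratio of S100a6 to S100b from 1.01 to 1.27 (main 1.10). Same-numbered mice did not deviate together (correlations 0.04, -0.31 and -0.16). With only 3 mice in each group, these values cannot exclude that the numbers pair them. The replicate block gave 3 members past both thresholds, 7 members at an adjusted p under 0.05, and 6 partners and receptors past both thresholds. Over all tested genes it called 1437 higher past both thresholds and 2782 higher at an adjusted p under 0.05. Under the block Ager (adjusted p = 0.0866), Htr1b (0.0609) and Hltf (0.0729) did not pass and Ryr2 did (0.0223). S100a1, S100a10, S100a13 and S100a16 stayed at an adjusted p under 0.05 in all 14 alternatives that tested for any change, though not in the test against a log2 fold change of 1, with log2 fold changes from 0.65 to 0.76, 0.59 to 0.77, 0.67 to 0.79 and 0.48 to 0.65, and S100a9 passed in none of the 14 (log2 fold changes from 0.77 to 2.04, adjusted p from 0.106 to 0.430). No called value turned its direction, while the log2 fold changes of Anxa6 (-0.03 to 0.12) and Mcam (-0.11 to 0.10), which were not called, lay on both sides of 0. Library totals moved the median log2 fold change of all genes from 0.02 to 0.09. Counts were few for S100a8, S100a9, S100a3, S100a7a and Ager, at most 47 in any library, and a difference in S100a8 rests on at most 36 counts in a library.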

Other observations

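Among calcium-binding EF-hand genes outside the S100 family, more fell than rose. Of 35 tested, 4 rose, 14 fell and 17 did not pass at an adjusted p under 0.05, where 18.0% of all tested genes rose and 13.2% fell, with a median log2 fold change of -0.21, against 0.02 over all tested genes. Past both thresholds, Hpca, the hippocalcin gene of hippocampal neurons, fell by 1.56 (SE 0.30, edgeR adjusted p = 0.00512), with 42294, 40758 and 44079 counts in sham mice against 20188, 12988 and 7011 counts in BCAS mice. Cabp7 fell by 1.03 (SE 0.21, edgeR adjusted p = 0.00673). Aif1, which encodes the microglial protein Iba1, rose by 3.14 (SE 0.23, edgeR adjusted p = 3.74e-05). The hippocampal neuron list fell at an adjusted p under 0.05 in 7 of its 10 genes, and its part in these values was not tested.

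Genes of the fused S100 type, large proteins of skin and hair that carry an S100 domain, were nearly silent. Of 7, 5 were at 0 counts in every library and Flg had 2 counts in 1 library. Tchh was the exception, with 282, 233 and 266 counts in sham mice against 210, 233 and 152 counts in BCAS mice, for which the log2 fold change was -0.27 that did not pass (SE 0.19, edgeR adjusted p = 0.302).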
